A study of Saccharomyces cerevisiae YPS1009 with 18 samples.

Results

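The comparison described here is the strain difference in the response to the first day of culture, measured for every plasmid of a barcoded yeast gene library. It is the change in barcode abundance between T0, the starting pool, and day 1 in AGY1612, minus the same change in AGY1611. All 4872 plasmid rows of the count table belong to it, and 12 of the 18 samples of the series enter the contrast. Of these rows, 4508 had enough counts to be tested, 364 did not, and 86 had no count in any sample. One row is the empty vector, which has no cloned gene.

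Both strains are haploid derivatives of YPS1009, an isolate from oak soil. AGY1612 is YPS1009_Chr12, which carries a duplication of chromosome XII, and AGY1611 is the euploid strain. Sample labels name the strains by number alone; their ploidy is that of the published methods and of the second header line of the counts. AGY1612 is MATa ho-Δ1 his3-Δ with His3MX6 and NatMX inserted between BER1 and INA1, and AGY1611 is MATa ho-Δ1 with NatMX at the same site. Each pool of transformants was cultured at 30 °C in YPD, a rich glucose medium, with G418, the drug that selects for the plasmids. The 4 groups are AGY1612 day 1, AGY1612 T0, AGY1611 day 1 and AGY1611 T0, with 3 replicate libraries each. The 3 replicates of a strain came from 2 independent transformations, and which replicates share one is not stated. A p-value thus measures the spread between replicate libraries, pooled over all groups of the series fitted together. It does not measure the spread between transformations. At day 1, after 24 h, cells were plated on YPD with G418 for 48 h and the lawns were scraped, whereas T0 libraries were prepared from frozen stock.

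In the MoBY library each low-copy plasmid holds one yeast gene between its native flanks, together with a short identifying DNA barcode. A plasmid adds about one extra copy of its gene to the cell, so a barcode becomes more abundant when cells with that copy leave more viable descendants than the rest of the pool. By day 1 a rich-medium culture has exhausted its glucose, passed through the diauxic shift to respiration of ethanol and begun to arrest. Chromosome duplication loads the cell with extra transcripts and proteins, and the ribosome quality control (RQC) pathway, which clears stalled ribosomes and their unfinished chains, is among the systems that handle such products. The number of plasmid-bearing cells and the number of plasmid copies per cell cannot be told apart in these counts.

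At the plasmid level no strain difference at day 1 passed the test. Among 4508 plasmids 0 had FDR < 0.1 by the quasi-likelihood test of edgeR (0% of those tested), and the lowest FDR was 0.998. At an unadjusted p under 0.05 there were 172 plasmids (3.82%), of which 93 were higher in AGY1612 (2.06%) and 79 lower (1.75%). Their balance depended on the libraries fitted, with 161 higher and 252 lower in a fit of the 12 T0 and day 1 libraries alone. DESeq2 also gave 0 calls. The strain difference had a median of -0.03, quartiles of -0.63 and 0.54 and a 5th to 95th percentile range of -1.65 to 1.75, in log2 units. Its median standard error (SE) was 0.849 and the median half-width of its 95% interval was 1.76. That half-width holds for a single plasmid without adjustment over all plasmids. With adjustment, larger differences also failed to pass: RRM3, at 2.31 ± 0.58, had FDR = 0.998.

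The libraries themselves limit what can be read. Total counts were 1222135 to 1925967 in AGY1612 and 904993 to 1104929 in AGY1611 at day 1, and 3491412 to 5211070 in AGY1612 and 6138798 to 6298768 in AGY1611 at T0. Replicate 3 of both strains had more rows without a count at day 1. AGY1612 replicate 3 had 619 such rows, against 269 and 277 in the other AGY1612 libraries. AGY1611 replicate 3 had 468, against 308 and 279. Among plasmids tested, 290 were at 0 in AGY1612 replicate 3 and 151 in AGY1611 replicate 3, against 15 to 29 in the other day 1 libraries. Without AGY1612 day 1 replicate 3 there were again 0 calls, with 122 plasmids higher and 106 lower at an unadjusted p under 0.05. Without AGY1611 day 1 replicate 3 there were also 0 calls, with 106 higher and 117 lower. The starting pools were nearly alike: the SD of the T0 difference between strains over plasmids was 0.129, against 1.10 for the day 1 strain difference. Across plasmids, the day 1 responses of 2 libraries correlated with r of 0.443 to 0.517 within AGY1612 and 0.341 to 0.384 within AGY1611, and with 0.367 to 0.485 for the 9 pairs of libraries from different strains. These points share libraries and the T0 means of each strain. Pairs of libraries from different strains were thus about as alike as pairs from one strain.

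A response in a single library is given below as log2 CPM at day 1 minus the strain mean of log2 CPM at T0, where CPM is a count scaled by TMM to a library of 1e6. By this measure, 262 plasmids had all 3 AGY1612 responses above all 3 AGY1611 responses (5.81%) and 234 had them all below (5.19%). When each library was first centred on its median response, a choice made after seeing the data, the counts were 186 and 319, so the balance of the directions depends on the scaling. Of the plasmids at an unadjusted p under 0.05, 70 higher and 55 lower ones had responses that did not overlap. Both measures use the same libraries, so one is no separate support for the other. For 59 plasmids every AGY1612 library was above its T0 mean and every AGY1611 library below it (1.31% of those tested), and for 26 the reverse held (0.577%).

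Within each strain, day 1 against T0 gave more calls in AGY1612 than in AGY1611. In AGY1612 50 plasmids rose and 79 fell at FDR < 0.1, and in AGY1611 11 rose and 2 fell, with 4 plasmids called in both. Of the 129 plasmids called in AGY1612, 15 had an unadjusted p under 0.05 for the strain difference itself, and of the 13 called in AGY1611, 2 did. The larger number of calls in AGY1612 is therefore not a count of plasmids that differ between strains. The effective number of plasmids, the exponential of the Shannon entropy of count shares, was 2693 ± 25.3 in AGY1612 and 2626 ± 151 in AGY1611 at day 1 (SD, n = 3 each; exact two-sided permutation test, p = 0.5, where 0.1 is the smallest p that 3 against 3 libraries allow).

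**Figure D1:**
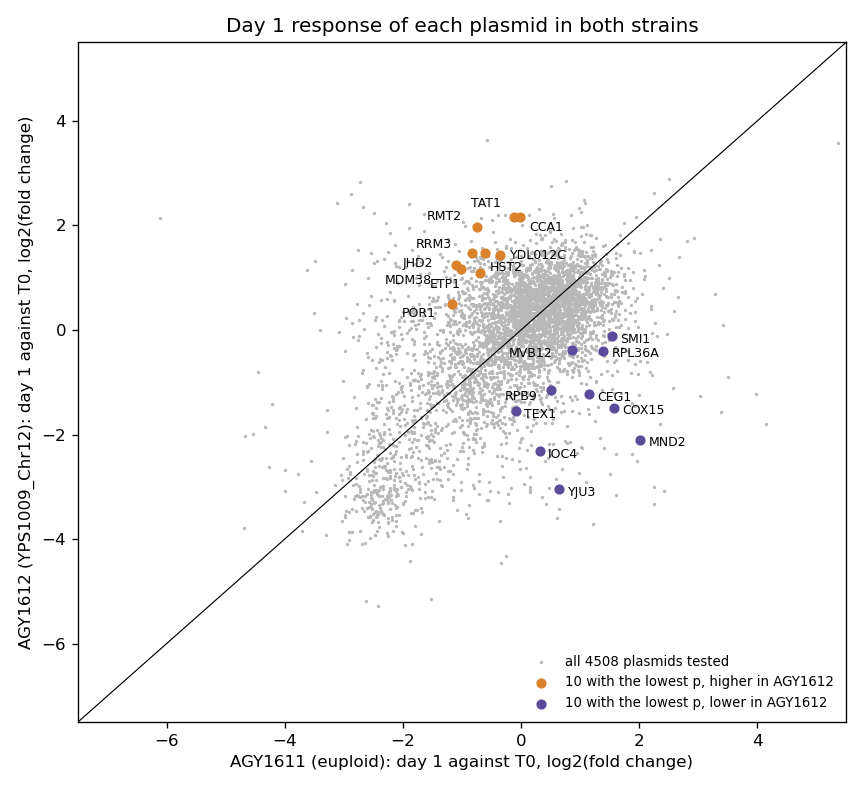
Log2(fold change) of each plasmid at day 1 against T0 in AGY1612 (vertical axis) and AGY1611 (horizontal axis) for 4508 plasmids tested, with the line of equal response; 1 point lies outside the axes. The 10 plasmids with the lowest p in each direction are coloured, and none passed FDR < 0.1.

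The plasmids with the lowest p and a higher response in AGY1612 carried genes of unlike function. First in rank was RRM3 (YHR031C, chromosome VIII), a DNA helicase that helps replication forks past protein-bound sites. Its barcode stood at 713, 754 and 626 CPM in the AGY1612 day 1 libraries, against 226, 118 and 61.9 CPM in the AGY1611 day 1 libraries. The T0 means were 249.9 ± 17 in AGY1612 and 241 ± 5.8 CPM in AGY1611 (SD, n = 3 each). All 3 AGY1612 libraries were thus above every AGY1611 library, and the strain difference was 2.31 ± 0.58 (log2 ± SE; unadjusted p = 0.000656, FDR = 0.998). Within AGY1612 the RRM3 plasmid rose (1.48 ± 0.41, FDR = 0.0841), and in AGY1611 its change was -0.83 ± 0.41 (FDR = 0.311).

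A pair of the leading plasmids carried genes of mitochondrial membrane proteins. POR1 (YNL055C, chromosome XIV), the porin or VDAC of the outer membrane through which metabolites pass, was at 412, 326 and 459 CPM in AGY1612 and at 109, 114 and 148 CPM in AGY1611 at day 1. Its T0 means were 283 ± 10.3 in AGY1612 and 279 ± 4.72 CPM in AGY1611, so the AGY1612 libraries lay above and the AGY1611 libraries below their starting level (difference 1.67 ± 0.51, unadjusted p = 0.00338). MDM38 (YOL027C, chromosome XV), an inner membrane protein linked to potassium exchange and to mitochondrial ribosomes, had 421, 561 and 349.7 CPM in AGY1612 and 94.1, 120.5 and 92.9 CPM in AGY1611. The MDM38 difference was 2.17 ± 0.61 (unadjusted p = 0.00174), and the lowest FDR that any setting gave it was 0.122, with DESeq2.

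A second group acts on chromatin and on RNA. HST2 (YPL015C, chromosome XVI), a cytosolic deacetylase of the sirtuin family, stood at 265, 739.7 and 814 CPM in AGY1612 and 152, 163 and 95.1 CPM in AGY1611, with T0 means of 218 ± 5.79 in AGY1612 and 209 ± 16.6 CPM in AGY1611. One AGY1612 library was close to T0 and the other 2 were well above it (difference 2.09 ± 0.67, unadjusted p = 0.00506). JHD2 (YJR119C, chromosome X), a histone demethylase of lysine 4 on histone H3, was at 781, 562 and 344 CPM in AGY1612 and 87.3, 206 and 35.4 CPM in AGY1611 (difference 2.35 ± 0.69). CCA1 (YER168C, chromosome V), the enzyme that adds the CCA end to tRNAs, was at 828, 502 and 246 CPM in AGY1612, against 52.8, 100.4 and 150.4 CPM in AGY1611 (difference 2.18 ± 0.68). The CCA1 plasmid rose within AGY1612 (2.16 ± 0.49, FDR = 0.061), while its AGY1611 change was -0.02 ± 0.47.

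The other 4 of the 10 were TAT1, RMT2, ETP1 and YDL012C. For TAT1 (YBR069C, chromosome II), a permease for bulky amino acids, 1 library carried much of the value, with 417, 2218 and 624 CPM in AGY1612 and 194, 300.2 and 166 CPM in AGY1611. The TAT1 difference was 2.28 ± 0.73, and 1.16 without AGY1612 day 1 replicate 2. RMT2 (YDR465C, chromosome IV), which methylates a ribosomal protein, had 953, 374 and 61 CPM in AGY1612 and 76.8, 75 and 61.9 CPM in AGY1611, so the strains overlapped. Its difference of 2.73 ± 0.86 was 1.62 without AGY1612 day 1 replicate 1. YDL012C (chromosome IV), whose protein is little characterised, was at 647, 513 and 1302 CPM in AGY1612 and 254, 196 and 273 CPM in AGY1611 (difference 1.78 ± 0.51), and rose within AGY1612 (FDR = 0.0632). ETP1 (YHL010C, chromosome VIII), needed for growth at high ethanol, was at 682, 608 and 245 CPM in AGY1612 and 112, 223 and 132 CPM in AGY1611 (difference 1.78 ± 0.58).

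On the lower side the lead plasmid carried MND2 (YIR025W, chromosome IX), a subunit of the anaphase-promoting complex that holds back its meiotic form. MND2 stood at 19.3, 50.2 and 22.3 CPM in AGY1612, against 199.6, 101 and 1173 CPM in AGY1611, with T0 means of 132 ± 15.9 in AGY1612 and 122 ± 9.03 CPM in AGY1611. Every AGY1612 library was below every AGY1611 library, but the size of the difference (-4.11 ± 1.09, unadjusted p = 0.00103) rested on the highest AGY1611 library and was -2.44 without it (AGY1611 day 1 replicate 3).

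The other lower plasmids carried genes of varied function. IOC4 (YMR044W, chromosome XIII), a subunit of the Isw1b chromatin remodeller, was at 28.7, 35.6 and 32.7 CPM in AGY1612, closely grouped, and at 345, 63.4 and 203 CPM in AGY1611 (difference -2.64 ± 0.81). It fell within AGY1612 (-2.32 ± 0.60, FDR = 0.0632), with 0.32 ± 0.56 in AGY1611. RPB9 (YGL070C, chromosome VII), a subunit of RNA polymerase II that aids elongation and proofreading, was at 109, 95 and 165 CPM in AGY1612 and 450.1, 253 and 422 CPM in AGY1611 (difference -1.65 ± 0.53). Its T0 means were 271 ± 11.3 in AGY1612 and 263 ± 3.01 CPM in AGY1611. CEG1 (YGL130W, chromosome VII), the guanylyltransferase of mRNA capping, had 92.1, 66.9 and 125 CPM in AGY1612 and 839.8, 202 and 376 CPM in AGY1611 (difference -2.37 ± 0.78). TEX1 (YNL253W, chromosome XIV), of the TREX complex that couples transcription to mRNA export, had 94.4, 131 and 139 CPM in AGY1612 and 372, 190.2 and 458 CPM in AGY1611 (difference -1.46 ± 0.53), and fell within AGY1612 (FDR = 0.061).

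RPL36A (YMR194W, chromosome XIII), a protein of the large ribosomal subunit, was at 111, 307 and 202 CPM in AGY1612 and 862, 289 and 875 CPM in AGY1611, and its responses overlapped (difference -1.78 ± 0.64). SMI1 (YGR229C, chromosome VII), a regulator of cell wall glucan synthesis, stood at 128, 199 and 334 CPM in AGY1612, on both sides of the T0 mean of 239 ± 4.98 CPM, and at 964, 488 and 620.4 CPM in AGY1611, all above the T0 mean of 238 ± 5.34 CPM (difference -1.66 ± 0.55). MVB12 (YGR206W, chromosome VII), of the ESCRT-I complex that sorts membrane proteins for degradation, had 337, 298 and 466 CPM in AGY1612 and 1188, 778 and 592 CPM in AGY1611 (difference -1.25 ± 0.45).

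For the remaining pair a single AGY1611 library set the size. COX15 (YER141W, chromosome V), the heme A synthase of cytochrome oxidase, was at 37.5, 29.1 and 59.3 CPM in AGY1612 and 786, 64.5 and 115 CPM in AGY1611. Its difference was -3.06 ± 1.02, and -1.22 without AGY1611 day 1 replicate 1. YJU3 (YKL094W, chromosome XI), the monoglyceride lipase, was at 29.8, 38.8 and 2.58 CPM in AGY1612 and 774, 96.2 and 79.6 CPM in AGY1611, with a difference of -3.69 ± 1.32, and -1.85 without the same library.

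**Figure D2:**
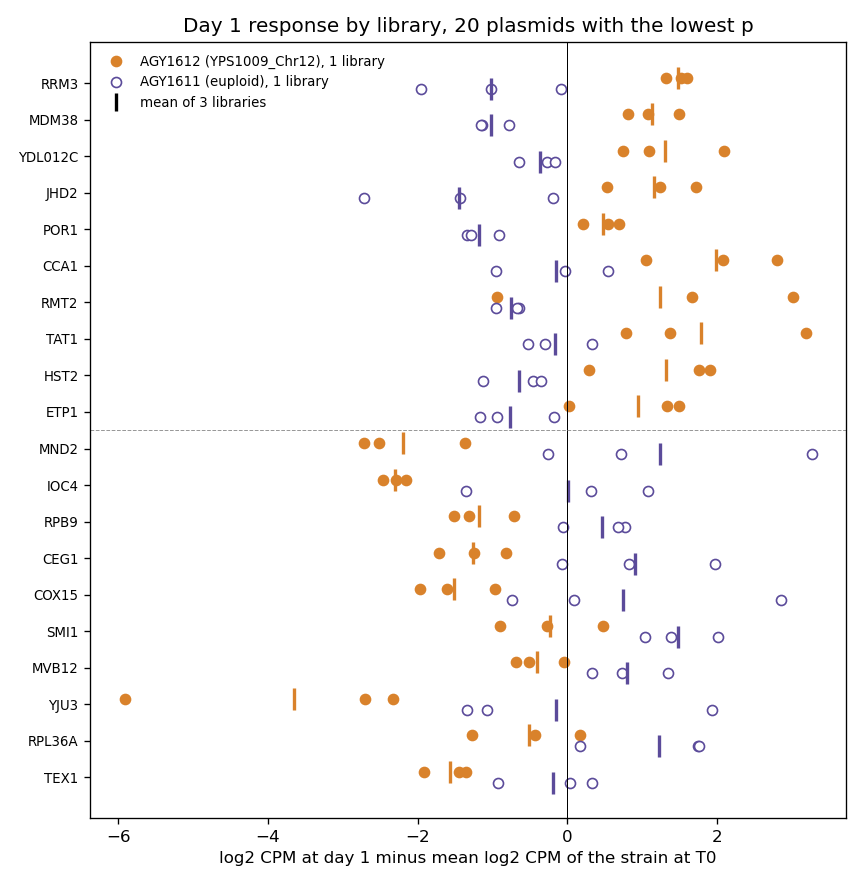
Response of each library (log2 CPM at day 1 minus the strain mean log2 CPM at T0) for the 20 plasmids with the lowest p, AGY1612 as filled points above AGY1611 as open points, with the mean of 3 libraries as a bar. The strains overlap for RMT2 and RPL36A and for none of the other 18. The plasmids were picked by p from these same libraries, so that separation is no separate support.

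The RQC pathway was measured with 14 of 15 listed genes, because the RQC2 plasmid was not tested. No member reached an unadjusted p under 0.05, and none had responses that did not overlap between strains. The median strain difference of the 14 was 0.31, against -0.03 for all plasmids tested, and 10 of 14 were above 0 (71.4%, against 48.7% of all plasmids). Relative to the median of all plasmids, this list median ranged from 0.09 to 0.60 when single libraries were left out. By library, however, the strains overlapped. Centred on the median of all plasmids in each library, the list median was -0.79, 0.36 and -0.15 in AGY1612 and -1.06, -0.24 and -0.30 in AGY1611.

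Several of the large values in this list came from plasmids with few counts. Among the sensors and splitters of collided ribosomes, CUE3 had 251, 429 and 608 CPM in AGY1612 and 124, 274 and 249 CPM in AGY1611 at day 1, with a difference of 0.97 ± 0.63 (unadjusted p = 0.139). HEL2, the ubiquitin ligase that marks collided ribosomes, had 221, 21 and 0 counts in AGY1612 and 45, 13 and 47 counts in AGY1611 (0.19 ± 1.99). Of the other RQC-trigger members, SLH1 was at 0.57 ± 1.46 and RQT4 at 2.05 ± 1.87. MBF1, which is in the list but not in that complex, was at 0.71 ± 0.88. The RQT4 value turned negative, at -1.05, without AGY1612 day 1 replicate 2.

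The ribosome rescue factors gave values of both signs. DOM34, which recognises the empty site of a stalled ribosome, fell within AGY1612 (-3.51 ± 0.87, FDR = 0.061), had a change of -2.51 ± 0.83 in AGY1611 (FDR = 0.181), and had a strain difference of -1.0024 ± 1.12. It stood at 106, 96 and 0.859 CPM in AGY1612 and 131, 224 and 38.7 CPM in AGY1611, all below T0 means of 780.0 ± 83.1 in AGY1612 and 749 ± 43.3 CPM in AGY1611. Its partner HBS1 had 17, 457 and 0 counts in AGY1612 and 4, 15 and 1 counts in AGY1611, so that its difference of 3.75 ± 2.21 was decided by 1 library and was -0.36 without it (AGY1612 day 1 replicate 2). RLI1, the recycling ATPase, was at -0.23 ± 0.86.

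In the complex that tags and extracts the unfinished chain, RQC1 stood at 154, 449 and 244 CPM in AGY1612 and 398, 108 and 251 CPM in AGY1611, so both strains straddled the T0 means of 167 ± 5.01 in AGY1612 and 169 ± 2.95 CPM in AGY1611 (difference 0.18 ± 0.77, 95% interval -1.42 to 1.77). RKR1, also called LTN1, the ubiquitin ligase of the complex, had 12, 6 and 38 counts in AGY1612 and 0, 6 and 1 counts in AGY1611 (2.57 ± 2.35, and 1.10 to 4.71 with single libraries left out). The extraction ATPase CDC48 was at 0.33 ± 0.85, its cofactors NPL4 and UFD1 at -0.27 ± 0.64 and 0.30 ± 0.79, and VMS1, which releases the chain from its tRNA, at -0.48 ± 0.88. For RQC1, NPL4, UFD1, RLI1 and HEL2 the sign of the difference changed when single libraries were left out. The same omissions gave -1.48 to -0.38 for DOM34, 0.22 to 1.35 for MBF1, 0.0909 to 1.09 for SLH1, -1.23 to -0.0490 for VMS1 and 0.14 to 0.53 for CDC48.

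Beyond this pathway, 48 lists of genes by function covered 1743 of the plasmids tested. Their median strain differences ran from -1.21 to 1.58, with 17 above 0 and 31 below, and the quartiles of 45 lists spanned the median of all plasmids, all but hexose transporters, amino acid permeases, and tubulins and microtubule proteins. The highest median belonged to hexose transporters, of which only 2 of 6 were tested, HXT4 (2.14 ± 1.39) and HXT14 (1.02 ± 1.79). The comparison of lists uses counts and medians only, with no test over a list. Centred on the median of all plasmids in each library, list medians did not overlap between strains for 4 lists higher in AGY1612 and 6 lower. Lists not shown by library below are among them, such as tRNA modification and peroxisome (higher) and the large ribosomal subunit (lower). At an unadjusted p under 0.05, 2.06% of all plasmids tested were higher and 1.75% lower. Counts at that threshold in the lists below stand beside these shares.

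**Figure D3:**
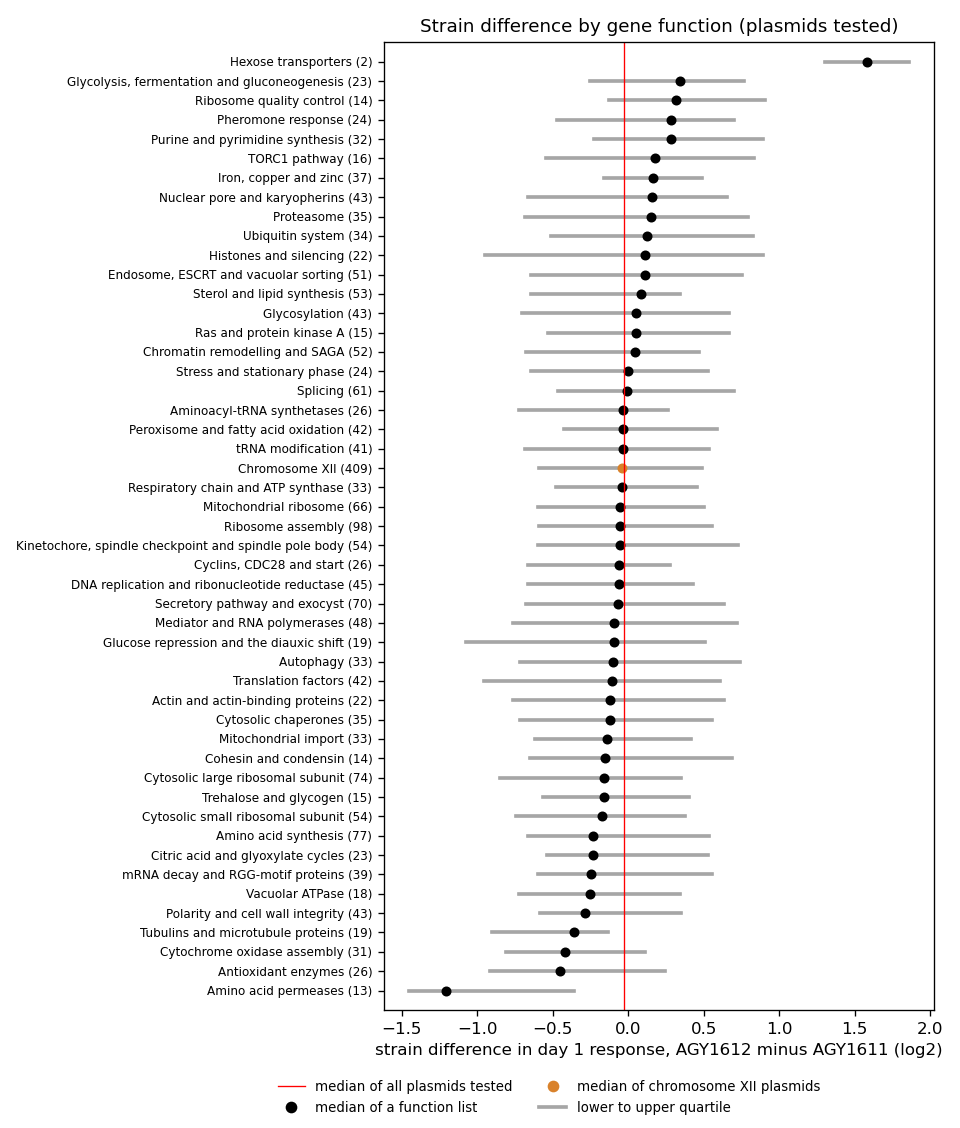
Median strain difference in day 1 response (point) and quartiles (bar) of 48 function lists and of chromosome XII, in log2 units, with the number of plasmids tested in brackets. Amino acid permeases have the lowest median at -1.21, and the red line marks the median of all plasmids at -0.03.

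Amino acid permeases, the plasma membrane proteins that import amino acids, had the lowest median of the lists. Of 17 listed genes 13 were tested, with a median of -1.21 and a mean of -0.77, and 2 of 13 were above 0 (15.4%, against 48.7% of all plasmids). At an unadjusted p under 0.05 there was 1 higher gene, TAT1, and 1 lower gene, MUP1. Responses did not overlap for 4 lower genes (30.8%, against 5.19% of all plasmids) and 1 higher gene (7.69%, against 5.81%). MUP1, the high-affinity methionine permease, stood at 158, 114 and 101 CPM in AGY1612 and 197, 468 and 491 CPM in AGY1611, with T0 means of 247 ± 6.87 in AGY1612 and 254 ± 4.82 CPM in AGY1611 (difference -1.59 ± 0.66, unadjusted p = 0.0239). Here the AGY1612 libraries lay below T0, and the AGY1611 libraries on both sides of it.

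TAT2, a tryptophan permease, had 9.93, 8.09 and 3.44 CPM in AGY1612 and 20.2, 50.7 and 65.2 CPM in AGY1611 (difference -2.48 ± 1.65). The other lower members without overlap, named after their values were seen, were SAM3 and MMP1, permeases of S-adenosylmethionine and S-methylmethionine. SAM3 was at 27, 32.9 and 0 CPM in AGY1612 and 43.2, 55 and 33.2 CPM in AGY1611, far below T0 in both strains (difference -1.21 ± 1.30). MMP1 was at 6.62, 5.4 and 5.16 CPM in AGY1612 and 17.3, 14.8 and 19.9 CPM in AGY1611 (difference -1.45 ± 1.25). TAT2, SAM3 and MMP1 thus stood at low CPM in AGY1612, with SEs of 1.25 to 1.65, so their separation rests on few counts. Centred on the median of all plasmids in each library, the list median was -0.89, -0.36 and -1.05 in AGY1612 and -0.03, 0.24 and -0.23 in AGY1611. Relative to all plasmids it ranged from -1.38 to -0.77 when single libraries were left out. Enzymes of amino acid synthesis (77 tested) had a median of -0.23, with 2 higher and 1 lower at an unadjusted p under 0.05.

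Genes for assembly of cytochrome oxidase, the terminal enzyme of the respiratory chain, also had a low median. Of 34 listed, 31 were tested, with a median of -0.42, 9 above 0 (29%, against 48.7% of all plasmids). Responses did not overlap for 5 lower members (16.1%, against 5.19% of all plasmids) and 1 higher member (3.23%, against 5.81%). Besides COX15, COX17, which carries copper to the enzyme, stood at 32, 48.6 and 111 CPM in AGY1612 and 172, 236 and 293 CPM in AGY1611 (difference -1.79 ± 0.97, unadjusted p = 0.079). Its T0 means were 261 ± 13.4 in AGY1612 and 277 ± 8.75 CPM in AGY1611, so AGY1612 libraries were all well below T0. COX23, a related protein of the intermembrane space, went the other way, with 306, 382 and 647 CPM in AGY1612 and 167, 141 and 73 CPM in AGY1611 (difference 1.80 ± 0.88). Library medians centred on all plasmids were -0.21, -0.47 and -0.47 in AGY1612 and 0.42, 0.00 and 0.02 in AGY1611.

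The list of respiratory chain and ATP synthase genes, which also holds cytochrome c and inhibitors of the synthase, lay close to the median of all plasmids. Of its genes 33 were tested, with a median of -0.04. At an unadjusted p under 0.05 there were 2 higher and 0 lower, against 2.06% and 1.75% of all plasmids. NDE1, the external NADH dehydrogenase, was at 196, 308 and 467 CPM in AGY1612 and 67.2, 146 and 76.3 CPM in AGY1611 (difference 1.98 ± 0.75, unadjusted p = 0.0145). COX8, a subunit of cytochrome oxidase, was at 1234, 683 and 1056 CPM in AGY1612 and 749.5, 419.6 and 631 CPM in AGY1611, with T0 means that themselves differed, at 348 ± 57.1 in AGY1612 and 456 ± 99.9 CPM in AGY1611 (difference 1.11 ± 0.44). Proteins of the mitochondrial ribosome (66 tested, median -0.05) had 4 higher and 1 lower by that threshold, against the same shares. Their responses did not overlap for 10.6% higher and 4.55% lower, against 5.81% and 5.19% of all plasmids. Among them MRPS5 was at 259.9, 523 and 544 CPM in AGY1612 and 105, 234 and 112 CPM in AGY1611 (difference 1.57 ± 0.59), and MRP49 had a difference of 2.06 ± 0.82.

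Antioxidant enzymes, the peroxidases, glutaredoxins and related proteins, had a median of -0.45 over 26 tested, with 9 above 0 (34.6%, against 48.7% of all plasmids). A single member was lower at an unadjusted p under 0.05, the glutathione peroxidase HYR1, with 3, 1 and 0 counts in AGY1612 and 118, 3 and 0 counts in AGY1611. Its fitted difference of -5.50 ± 2.18 thus rested on 1 library. GRX3, a glutaredoxin of the iron sensing system, was at 252, 271 and 408 CPM in AGY1612 and 155, 120.5 and 94 CPM in AGY1611 (difference 1.34 ± 0.81). The peroxiredoxin TSA1 was at 35.9, 13.5 and 7.73 CPM in AGY1612 and 242, 25.4 and 12.2 CPM in AGY1611 (difference -2.30 ± 1.64), and its strains overlapped. Library medians of the list were -0.71, -0.29 and -0.15 in AGY1612 and 0.20, -0.03 and -0.01 in AGY1611.

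Purine and pyrimidine synthesis had a median of 0.28 over 32 tested, with 22 above 0 (68.8%, against 48.7% of all plasmids). At an unadjusted p under 0.05, where 2.06% of all plasmids were higher and 1.75% lower, there were 3 higher genes, FUR1, ADE12 and URA4, and 0 lower ones. FUR1, which salvages uracil, was at 436, 854 and 396 CPM in AGY1612 and 308, 248 and 123 CPM in AGY1611 (difference 1.30 ± 0.55). URA4, the dihydroorotase of the pyrimidine pathway, was at 669, 169.9 and 179 CPM in AGY1612 and 55.7, 130.0 and 111 CPM in AGY1611 (difference 1.78 ± 0.79), and ADE12, which makes adenylosuccinate, was at 206, 767 and 289 CPM in AGY1612 and 63.3, 228 and 107 CPM in AGY1611 (difference 1.72 ± 0.74). For URA4 the AGY1612 library at 669 CPM stood far above the others. For ADE12 the day 1 CPM of the strains overlapped. Responses did not overlap for 5 higher genes (15.6%, against 5.81% of all plasmids) and 1 lower gene (3.12%, against 5.19%). This list stayed above the median of all plasmids, by 0.28 to 0.46, whichever single library was left out.

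Cytosolic ribosomal proteins lay slightly below the median of all plasmids. The large subunit list (74 tested) had a median of -0.16, with 2 higher and 5 lower without overlap (2.7% and 6.76%, against 5.81% and 5.19% of all plasmids), and the small subunit list (54 tested) had a median of -0.18, with 2 in each direction (3.7%). RPS30A of the small subunit was at 830.4, 1278 and 751 CPM in AGY1612 and 592, 427 and 421 CPM in AGY1611 (difference 0.95 ± 0.42). Translation factors (42 tested, median -0.11) had 7 lower members without overlap (16.7%, against 5.19% of all plasmids) and 1 higher (2.38%, against 5.81%), with 1 in each direction at an unadjusted p under 0.05. The lower one, GCD7, a subunit of the exchange factor eIF2B, stood at 214, 104 and 71.3 CPM in AGY1612 and 379, 490.4 and 495 CPM in AGY1611 (difference -1.77 ± 0.79). The higher one, TIF1, the helicase eIF4A, stood at 804, 254 and 455 CPM in AGY1612 and 183, 208 and 190.2 CPM in AGY1611 (difference 1.37 ± 0.61). Ribosome assembly factors (98 tested, median -0.05) had 3 higher and 9 lower without overlap (3.06% and 9.18%, against 5.81% and 5.19% of all plasmids).

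In the nucleus, histones and silencing factors (22 tested, median 0.11) had 6 higher members without overlap (27.3%, against 5.81% of all plasmids) and 2 lower (9.09%, against 5.19%). The medians of this list by library overlapped between strains. Besides HST2, HTA1, one of the histone H2A genes, was at 137, 217 and 354 CPM in AGY1612 and 112, 85.6 and 97.3 CPM in AGY1611 (difference 1.27 ± 0.63), and the linker histone gene HHO1 was at 41.4, 38.3 and 117 CPM in AGY1612 and 12.5, 25.4 and 8.85 CPM in AGY1611 (difference 2.12 ± 1.19). Nuclear pore proteins and karyopherins (43 tested, median 0.16) had 6 higher members without overlap (14%, against 5.81% of all plasmids) and 2 lower (4.65%, against 5.19%). YRB1, a Ran-binding protein of nuclear transport, was at 842, 426 and 371 CPM in AGY1612 and 153, 287 and 195 CPM in AGY1611 (difference 1.29 ± 0.56). In the list of DNA replication and ribonucleotide reductase genes (45 tested, median -0.06), responses did not overlap for 5 lower members and 1 higher. These are 11.1% and 2.22%, against 5.19% and 5.81% of all plasmids, and its medians by library did not overlap either. At an unadjusted p under 0.05, 2 were lower and 0 higher, against 1.75% and 2.06% of all plasmids. The lower ones by that threshold were RFC3, of the clamp loader, at -1.49 ± 0.61 and CDC7, the kinase that fires origins, at -1.56 ± 0.67. CDC7 stood at 89.9, 67.4 and 147 CPM in AGY1612 and 376, 309.7 and 209 CPM in AGY1611, with T0 means of 153 ± 19.3 in AGY1612 and 153 ± 10 CPM in AGY1611.

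Protein turnover and nutrient signalling lists lay near the median of all plasmids. The proteasome (35 tested) had a median of 0.15 and the ubiquitin system (34 tested) one of 0.12, with RPN10, a ubiquitin receptor of the proteasome, at 1.30 ± 0.62 and UBC8, a ubiquitin-conjugating enzyme, at -1.68 ± 0.69. In the autophagy list (33 tested, median -0.10), ATG32, the receptor that directs mitochondria to the vacuole, was at 78.9, 120.3 and 157 CPM in AGY1612 and 695, 166 and 529 CPM in AGY1611 (difference -2.03 ± 0.96). Most of that difference arose from the AGY1611 libraries, which stood above the T0 mean of 73.6 ± 3.95 CPM. In the list for glucose repression and the diauxic shift (19 tested, median -0.09), SAK1, which activates the Snf1 kinase, was at 465, 536 and 564 CPM in AGY1612 and 187, 292 and 132 CPM in AGY1611 (difference 1.39 ± 0.50, unadjusted p = 0.0112). HAP2, of the activator of respiratory genes, was lower on its first plasmid (-1.16 ± 0.46) and at -0.78 ± 1.23 on its second.

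Chromosome XII, which AGY1612 carries in an extra copy, contributed 409 of the plasmids tested. Their median strain difference was -0.04, against -0.03 for the 4092 plasmids of other chromosomes. Counts at an unadjusted p under 0.05 were 8 higher and 7 lower, where 2.06% of all plasmids tested were higher and 1.75% lower. Counts without overlap were 19 higher (4.65%, against 5.94% on other chromosomes) and 24 lower (5.87%, against 5.11%). KNS1 and SNF7 lie on this chromosome.

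The day 28 aliquots of the same cultures gave 12 plasmids whose response differed between strains at FDR < 0.1, and their day 1 values are set beside it. Both comparisons share the T0 libraries. At day 1, 2 of the 12 were higher in AGY1612 at an unadjusted p under 0.05, POR1 and FMP48, and 1 was lower, AIM39. Of all plasmids tested, 2.06% were higher and 1.75% lower by that threshold. Day 1 and day 28 values of a plasmid also come from the same cultures, so they are not independent. POR1 had a strain difference of 1.67 ± 0.51 at day 1 and 2.31 at day 28 (FDR = 0.0657). FMP48, a mitochondrial protein kinase, was at 197, 383 and 213 CPM in AGY1612 and 93.1, 96.2 and 23.2 CPM in AGY1611 at day 1, with T0 means of 274 ± 14.6 in AGY1612 and 269 ± 8.85 CPM in AGY1611. Its difference was 1.87 ± 0.75 at day 1 (unadjusted p = 0.0202) and 3.52 at day 28 (FDR = 0.0657).

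For 5 of the 12 the day 1 difference was smaller than its SE. For RNR2, the small subunit of ribonucleotide reductase, the plasmid fell within AGY1612 (-2.48 ± 0.70, FDR = 0.0859) and had a change of -2.41 ± 0.70 in AGY1611 at day 1. The RNR2 difference was -0.07 ± 0.94 at day 1, and 6.45 at day 28 (FDR = 0.0398), with 12, 44 and 31 counts in AGY1612 and 0, 1 and 0 counts in AGY1611. OM14, of the mitochondrial outer membrane, was at 0.31 ± 0.96 at day 1 and -6.96 at day 28 (FDR = 0.0398), with 0, 1 and 1 counts in AGY1612 and 3, 227 and 71 counts in AGY1611. NPL3, an RNA-binding protein of mRNA processing, was at -0.06 ± 0.63 and -3.75 (FDR = 0.0371). KNS1, a protein kinase, was at -0.57 ± 0.62 and -3.03 (FDR = 0.0473), and SNF7, of the ESCRT-III complex, at -0.67 ± 1.12 at day 1. SNF7 had 0, 0 and 0 counts in AGY1612 and 29, 12 and 41 counts in AGY1611 at day 28 (FDR = 0.0411), and its fitted day 28 difference, against a strain at 0, is not given. With single libraries left out the day 1 difference ranged from -1.06 to -0.29 for KNS1 and from -1.07 to -0.42 for SNF7.

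COA1, an assembly factor of cytochrome oxidase, had opposite signs at the time points. Its barcode was at 216, 155 and 115 CPM in AGY1612 and 346, 239 and 436 CPM in AGY1611 at day 1, around or below and above T0 means of 169.5 ± 8.16 in AGY1612 and 171 ± 4.87 CPM in AGY1611. The COA1 difference was -1.06 ± 0.76 at day 1 and 3.85 at day 28 (FDR = 0.0411). The remaining 4 were negative at both times. KSP1, a protein kinase, fell within AGY1612 at day 1 (-2.66 ± 0.63, FDR = 0.061), and its difference was -1.75 ± 0.84 at day 1 (unadjusted p = 0.0502) and -4.82 at day 28. Without AGY1611 day 1 replicate 2 the KSP1 day 1 difference was -1.05. SBP1, an RGG-motif repressor of translation, was at -0.60 ± 0.49 and -3.57, AIM39 at -1.30 ± 0.61 and -3.03, and VMA3, of the vacuolar proton pump, at -1.48 ± 1.34 at day 1. At day 28 VMA3 had 0, 0 and 0 counts in AGY1612 and 38, 40 and 103 counts in AGY1611, and its fitted difference is not given because it depends on the prior count. The VMA3 day 1 difference was 0.56 without AGY1611 day 1 replicate 3.

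**Figure D4:**
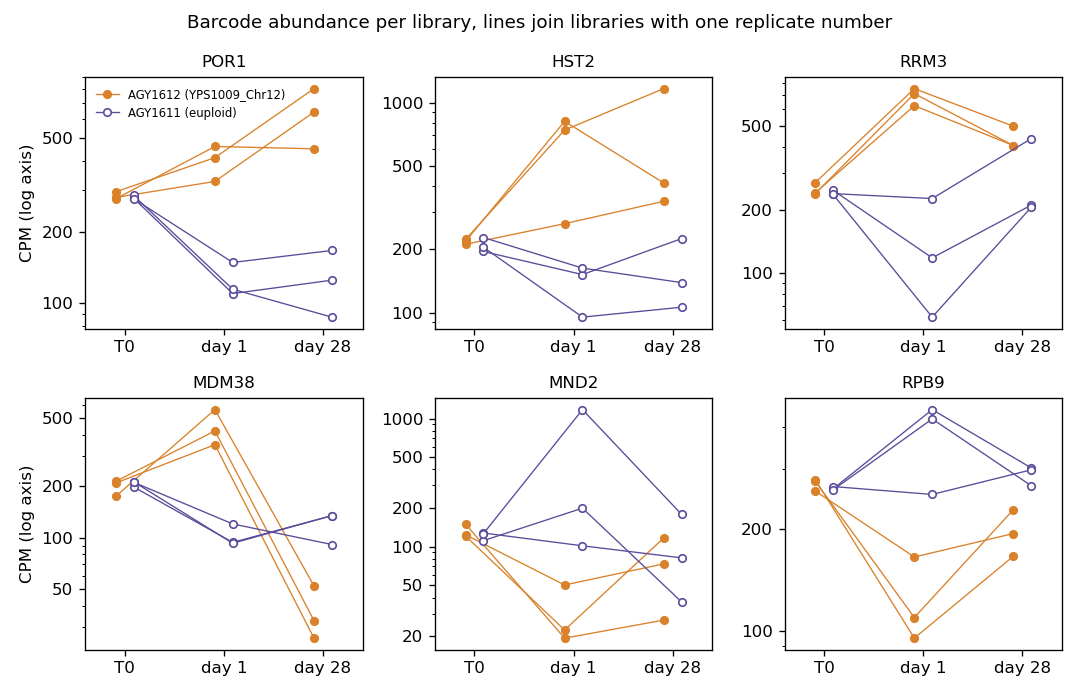
CPM (log axis) in each library at T0, day 1 and day 28 for 6 named plasmids, AGY1612 as filled and AGY1611 as open points. For POR1 the AGY1612 and AGY1611 libraries are apart at day 1 (412, 326 and 459 CPM in AGY1612, 109, 114 and 148 CPM in AGY1611) and at day 28, whereas MDM38 is higher in AGY1612 at day 1 and lower there at day 28.

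Among the other leading plasmids the day 28 difference was not past FDR < 0.1. RRM3 was at 0.57 (FDR = 0.961), HST2 at 1.97 (FDR = 0.429) and JHD2 at 1.07. MDM38 was at -1.63 at day 28 (FDR = 0.572), with the opposite sign of its day 1 value, and MND2 was at -0.55. COX15 was at -2.44 (FDR = 0.631).

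One plasmid bears on a marker of the strains, and one carries no gene. HIS3, the histidine gene that AGY1612 lacks at its own locus, was at 67.3, 385 and 687 CPM in AGY1612 and 262, 862 and 1044 CPM in AGY1611, with T0 means of 228 ± 10.8 in AGY1612 and 218 ± 6.27 CPM in AGY1611. The strains overlapped, and the difference was -1.0003 ± 0.84 (unadjusted p = 0.247). The empty vector had 0, 317 and 0 counts in AGY1612 and 3, 268 and 3 counts in AGY1611, with T0 means of 99.4 ± 85.4 in AGY1612 and 78.1 ± 103 CPM in AGY1611, and its difference of -1.10 ± 3.04 had an interval of -7.39 to 5.19. By replicate number, its T0 counts were 5, 579 and 892 in AGY1612 and 20, 1370 and 261 in AGY1611. At day 28 they were 0, 181 and 0 in AGY1612 and 1, 244 and 1 in AGY1611. In both strains replicate 2 was thus highest at day 1 and day 28, and replicate 1 lowest at T0. The reason was not tested.

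A gene with a second plasmid shows how far a value repeats. Of 54 such genes 44 were tested on both plasmids, and 20 of these 44 had differences of the same sign. Over the 44 pairs the strain differences of both plasmids correlated with r of 0.194, the AGY1612 responses with r of -2.81e-05 and the AGY1611 responses with r of 0.26. The median gap was 1.06 log2 units, 23 gaps exceeded 1, and 1 gap exceeded 2 combined standard errors. That gene was BIM1, a microtubule plus-end protein, with 0.95 ± 0.68 and -1.43 ± 0.86. Its first plasmid was at 673, 279 and 388 CPM in AGY1612 and 99.8, 255 and 331 CPM in AGY1611, and its second at 82.2, 172 and 27.5 CPM in AGY1612 and 228, 271 and 244 CPM in AGY1611.

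The closest pair was UBC13, a ubiquitin-conjugating enzyme of DNA repair, with 0.25 ± 0.72 and 0.13 ± 1.60. MRC1, a mediator of the replication checkpoint, had -1.06 ± 0.81 and -1.20 ± 0.60, although its plasmids responded unlike each other within AGY1612 (-2.36 ± 0.60 and -0.50 ± 0.43). CMC1, an assembly factor of cytochrome oxidase, had -1.02 ± 0.68 and -1.19 ± 0.85. The widest gaps were those of DSD1, a D-serine dehydratase, with -1.02 ± 0.92 and 1.71 ± 1.22, and of YHC3, a vacuolar membrane protein, with -2.39 ± 1.04 and 0.16 ± 1.54.

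**Figure D5:**
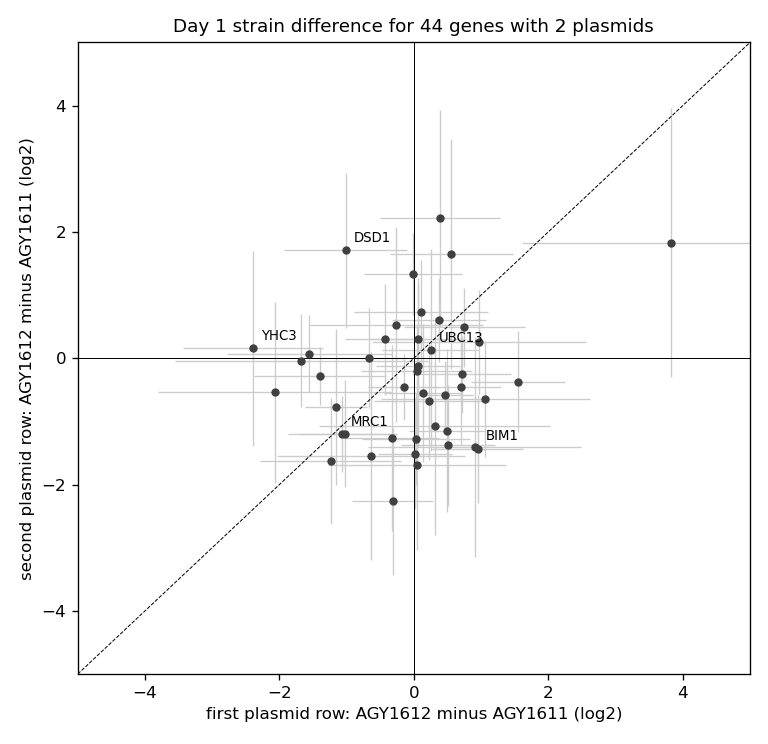
Strain difference in day 1 response (log2) on the first plasmid row against the second for 44 genes with 2 plasmids, each with ±1 SE, and the line of equality dashed. Points scatter around 0 with r of 0.194, and 20 of 44 pairs share a sign.

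Counts of 0 set a limit at day 1. No plasmid tested was at 0 in all 3 AGY1612 day 1 libraries, and 2 were at 0 in all 3 AGY1611 libraries, ARO2 and FAR11. ARO2, the chorismate synthase of aromatic amino acid synthesis, had 28, 0 and 25 counts in AGY1612 and 0, 0 and 0 counts in AGY1611, from T0 means of only 2.74 ± 0.962 in AGY1612 and 3.07 ± 0.555 CPM in AGY1611. FAR11 had 1 count in AGY1612. Neither fitted difference is given, since it depends on the prior count.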

How the data were processed

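Per the methods of the study, barcodes were amplified from plasmid DNA and sequenced, and the authors deposited raw counts of barcode reads per plasmid, plasmids in rows and samples in columns. How the reads were assigned to barcodes is not given in the sources used here. Systematic names of 4865 of 4872 rows were found in the RefSeq table of assembly R64, used for symbols and chromosomes only. No sequence is shown.

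All fits were run in R 4.3.3 and edgeR 4.0.16, with filterByExpr, TMM factors and dispersions over all 18 samples with 1 coefficient per group. The contrast was tested by the quasi-likelihood F-test, two-sided, with p-values adjusted over all 4508 plasmids by the Benjamini-Hochberg method (FDR, threshold 0.1). SE is the log2 difference divided by the square root of F. CPM is TMM-scaled, and log2 CPM used a prior count of 2. All intervals are 95% intervals of the fit.

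Named genes were the 10 lowest p in each direction, up to 3 lowest p in each function list described, all RQC members tested, HIS3, the empty vector, the plasmids with a day 28 strain difference and the closest and most distant genes with 2 plasmids. Members, lists and tests were chosen with earlier results of these data known. Alternatives were RLE or total-count scaling, other filters, DESeq2 1.42.0, limma 3.58.1 voom with group weights, fits to fewer libraries, a replicate block, FDR < 0.05, another prior count and each library left out in turn. Replicate numbers come from the sample titles. Within a strain, deviations of T0 and day 1 libraries with one number correlated between -0.02 and 0.11. The numbers were not taken to pair T0 with day 1 libraries in the main fit. T0 libraries of a strain differed little for most named plasmids, so this check cannot exclude such a pairing. The empty vector was highest in replicate 2 of both strains at day 1 and day 28. The check also cannot show whether a number marks a batch shared by both strains.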

Additional observations from a re-analysis of the deposited data

Results flagged for a closer look

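Of the plasmids named, 47 were examined for opposite directions. They are the 10 with the lowest p in each direction, the RQC members, HIS3, the empty vector and those with a day 28 difference. Other plasmids named from function lists or as genes with 2 plasmids were not examined. For 8 of the 47, every day 1 library of AGY1612 lay on one side of its T0 mean and every day 1 library of AGY1611 on the other. The strain difference itself was tested for each, and none passed FDR < 0.1. The AGY1612 libraries were above and the AGY1611 libraries below T0 for all but MVB12. The strain differences were 2.31 for RRM3, 2.17 for MDM38, 1.78 for YDL012C, 2.35 for JHD2, 1.67 for POR1, 2.09 for HST2 and 1.78 for ETP1. MVB12 went the other way, with -1.25. Over all plasmids tested, 1.31% showed the first pattern and 0.577% the second, and most of these 8 were named for a low p, so their number is no separate result. The ETP1 response of 1 AGY1612 library was only 0.02 above its T0 mean.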

How the results depend on the processing

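No plasmid passed FDR < 0.1 under any alternative run. Over all plasmids the lowest FDR of a setting was 0.122 with DESeq2, 0.158 without AGY1611 day 1 replicate 1 and 0.191 without AGY1612 day 1 replicate 3. Main counts at an unadjusted p under 0.05 were 93 higher and 79 lower. They were 161 higher and 252 lower when only the 12 T0 and day 1 libraries were fitted, 159 and 135 with only the 6 day 1 libraries, 117 and 132 with DESeq2, and 132 and 105 with voom. With single libraries left out they ranged from 51 to 149 higher and from 38 to 136 lower. The cause was not tested. With the replicate block the count was 98 higher and 69 lower, and with the block within strain 106 and 60, with 0 calls in both. Pairing each day 1 library with the T0 library of its number gave 267 higher and 231 lower without overlap, against 262 and 234. The block changed no call.

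The median of chromosome XII plasmids, -0.04, was -0.16 in the 12-library fit and ranged from -0.20 to -0.0110 with single libraries left out. In the 12-library fit the median of all plasmids moved to -0.13. The effective-number difference of 66.1 plasmids was 63.8 after thinning to the shallowest day 1 library and 11.7 to 152 with single libraries left out. The 2-plasmid genes shared a sign in 18 to 28 of 44 pairs over the alternatives.

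Signs turned for plasmids near 0 or with few counts. With voom VMS1 was at 0.0699, HEL2 at -1.96, RQT4 at -0.25 and RNR2 at 0.00408, and with the replicate block within strain HEL2 was at -0.25 and RNR2 at 0.0523. With single libraries left out the ranges were -0.58 to 0.0749 for NPL4, -0.69 to 0.18 for RLI1, -2.75 to 0.79 for HEL2, -0.40 to 0.67 for RQC1, -0.0493 to 0.83 for UFD1, -1.05 to 2.64 for RQT4 and -0.36 to 5.20 for HBS1. They were -11.63 to 3.84 for EmptyVector, -0.43 to 0.39 for RNR2, -0.0452 to 0.81 for OM14, -0.31 to 0.21 for NPL3 and -2.01 to 0.56 for VMA3. With at least 20 counts required in every T0 library there were 91 higher and 79 lower plasmids at an unadjusted p under 0.05.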
